A study of Solanum lycopersicum with 3 samples.

Results

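Predicted miRNAs of the tomato ovary that were counted at middle depth and stood higher after silencing of AGL6 are described here. They are 70 of the 634 miRNAs counted, and 70 of the 235 predicted miRNAs with at least 50 but fewer than 500 reads over 3 small RNA libraries. The members were chosen by their read counts: the reads of each library were divided by the median over all miRNAs of that library, a count of 0 was taken at 3, and the ratio of AGL6-silenced to mock-treated ovaries had to be 1.5 or more. That ratio is therefore given as a description only. The library of IAA9-silenced ovaries did not enter the choice, except through the limits on the summed reads.

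Each library came from 1 pool of ovaries of tomato (Solanum lycopersicum) cv UC82, and there was 1 library per condition. In AGL6sil the flower pedicels had been injected with 5 µg of dsRNA against AGL6 per ovary, carried by layered double hydroxide (LDH) particles, and in IAA9sil with as much dsRNA against IAA9. The mock-treated ovaries (ctrl) had received LDHs without dsRNA. The titles place the ovaries before anthesis. All flower buds were emasculated after 6 h and kept from pollination, and the ovaries were taken 5 days after treatment, so all 3 groups share emasculation, bagging and the LDH injection. The sample labels also call the ovaries detached, whereas the treatment protocol keeps them on the plant until collection. Silencing by applied dsRNA is transient and was not made in a stable line. The counts are of small RNAs only, so neither the transcripts of AGL6 and IAA9 nor marker transcripts of the ovary could be read from them. With no replicates, each ratio compares these libraries and not the conditions, and fewer cells of a type and less RNA per cell cannot be told apart.

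AGL6, a MADS-box transcription factor, and IAA9, an Aux/IAA repressor of auxin responses, both hold back growth of the ovary until fertilization. Plant miRNAs are cut from the stem of a hairpin precursor by a DICER-LIKE enzyme and guide ARGONAUTE proteins to transcripts with near-complete complementarity. Most conserved plant miRNAs are 21 nt long and begin with U. Small RNAs of 24 nt are mostly made by DICER-LIKE3, often begin with A, and guide DNA methylation at repeats and transposons. A predicted miRNA rests on the fold of its precursor and on reads that match it, and no function was assigned to any of the members.

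Mature sequences were at hand for 19 of the 70 members, 16 from the study's list of predicted miRNAs changed in AGL6sil and 4 from its list for IAA9sil, with 1 in both. The other 51 members are given by name alone. The first set shows the members with a sequence that had the highest ratios of AGL6sil to ctrl, 5′ to 3′, with the seed (bases 2 to 8) in capitals.
novel_267: aAUUGUCAuguaggacgaacgugu
novel_307: aUUAAGUGgcucuuucguacgaca
novel_170: aUUCGGUGucgaguagauguaugu
novel_104: aACGGAUUagaucggauuagauuu
novel_69: uUCCCUUGaccgcuucauuag

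After scaling, 8 members had more reads in IAA9sil than in AGL6sil. The choice of high AGL6sil counts keeps this number small. Over all 374 miRNAs with at least 50 reads the median ratio of AGL6sil to IAA9sil was 0.972. The second set shows the 3 of these 8 members with a sequence, all from the study's list for IAA9sil. It also shows novel_60 and novel_493, which were among the deeper members, again with the seed in capitals.
novel_318: uGUAUUAUauuguaggacacgugu
novel_110: aAGAUUCGuuauguauacaugaga
novel_521: aCAUGGUGcucaucugacaguuga
novel_60: aAAGAUCCucggacuuucaggcgg
novel_493: uAUUAUGUuauguagaaggagugu

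Of the 19 sequences, 17 were 24 nt long and 2, novel_69 and novel_316, were 21 nt long. The first base was A in 12 and U in 7, and never G or C. The other 28 predicted miRNAs with a sequence held 18 of 24 nt, and their first base was A in 15, U in 5, G in 6 and C in 2. Among the 24 nt sequences alone, 11 of the 17 members and 15 of the 18 others began with A. GC content ranged from 29.2% to 54.2% in the members, with a median of 37.5%, and the median of the others was 42.9%. Sequences were known only for miRNAs that the study listed as changed, so these counts describe that selection and were not tested.

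The 19 members with a sequence had 19 different seeds, and the other 28 predicted miRNAs with a sequence had 28. Seeds could be compared only among the 47 predicted and 46 known miRNAs with a sequence. Within these, a member shared its seed with miRNAs outside the members in 1 case. The seed of novel_343 was also that of novel_25 and of sly-miR9475-5p, a known tomato miRNA, and the stretch that each shares with novel_343 at its 5′ end is in capitals below (for novel_343, the 10 bases shared with sly-miR9475-5p).
novel_343: AACGAUCUCUggauaacuuagcgg
sly-miR9475-5p: AACGAUCUCUacauuguaggc
novel_25: AACGAUCUucgacuagcaaaagac
Beyond the 5′ end the sequences parted. novel_343 had 46 reads in AGL6sil against 19 in IAA9sil and 7 in ctrl. novel_25 had 280, 156 and 386 reads in the same order, with a ratio of AGL6sil to ctrl of 0.341. sly-miR9475-5p had 8728, 10381 and 12230 reads and a ratio of 0.335. In IAA9sil, the ratios to ctrl were 2.34 for novel_343 (0.941 to 6.58), 0.348 for novel_25 and 0.731 for sly-miR9475-5p. The ratio of novel_343 rests on the same 7 ctrl reads that entered its choice, and a low ctrl count raises both of its ratios.

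Other exact runs in common were short. novel_69 shared the 9 bases UUCCCUUGA with novel_220, which is not a member. Shifted by 1 base, these sequences also share CUUCAU near the 3′ end, with single-base differences in between. They are thus alike over most of their length, which the exact run does not show. novel_493 shared AAGGAGUGU with novel_327, likewise not a member. novel_267 and novel_318, both members, shared UGUAGGAC. A run of 8 or more bases was shared in 14 of the 1577 pairs that hold a member (0.888%), against 32 of all 4278 pairs among the 47 predicted and 46 known miRNAs with a sequence (0.748%). novel_104 consists almost wholly of a direct repeat, with the 10 bases CGGAUUAGAU present 2 times in tandem and shown in capitals.
novel_104: aaCGGAUUAGAUCGGAUUAGAUuu
No other sequence among the 47 held a repeat of more than 6 bases.

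The 70 members were thinly counted. Their reads summed to 7362 in AGL6sil against 2204 in IAA9sil and 1433 in ctrl, and a single member had between 52 and 486 reads in total (median 116.5). The libraries held 1460919, 1053000 and 1038064 miRNA reads, and their medians over all miRNAs were 33, 18 and 15.5, which scales AGL6sil by 2.129 and IAA9sil by 1.161 relative to ctrl. Of all reads on predicted miRNAs, the members took 11.3% in AGL6sil, 6.59% in IAA9sil (95% Clopper-Pearson interval 6.33% to 6.86%) and 4.65% in ctrl (4.42% to 4.89%). The share in AGL6sil and ctrl follows from the choice of members, while that in IAA9sil lay between them. The choice favours counts high in AGL6sil and low in ctrl, so part of this place follows from it too. How large that part is was not tested. Since PCR copies were not marked by molecular identifiers, all intervals cover counting error only. No single miRNA made up the group, since the largest contributor to each library held 4.97% of the members' reads in AGL6sil (novel_267), 5.76% in IAA9sil (novel_289) and 5.44% in ctrl (novel_46).

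**Figure D1:**
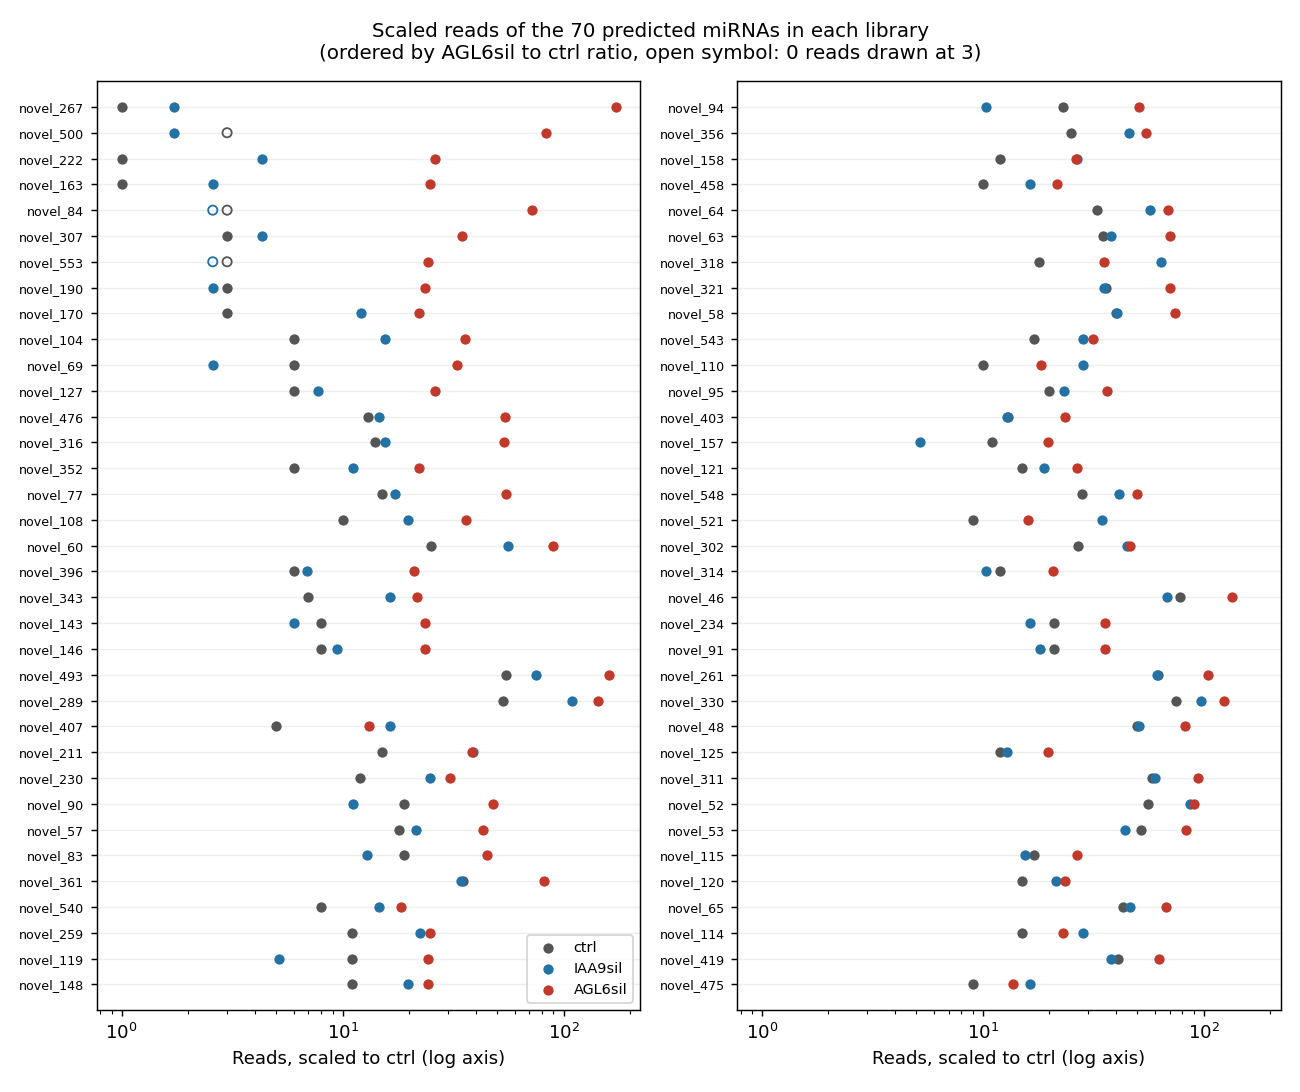
Reads of each of the 70 members in AGL6sil, IAA9sil and ctrl, 1 point per library, scaled to ctrl by the library medians and drawn on a log axis, with members ordered by the ratio of AGL6sil to ctrl from top left to bottom right. AGL6sil lies to the right of ctrl in each row because the members were chosen for that. IAA9sil lies near ctrl in some rows, and near AGL6sil or to its right in others.

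A ratio of AGL6sil to ctrl of 1.5 or more was found in 70 of the 235 predicted miRNAs of this depth (29.8%), in 8 of the 48 deeper predicted miRNAs (16.7%) and in 3 of the 35 known miRNAs of the same depth (8.57%). Over all 374 miRNAs with at least 50 reads it was 22.2%. The median ratio of the members was 2.21, that of the other 165 predicted miRNAs of the same depth 0.856, and that of the known miRNAs of that depth 0.345. A log2 ratio of at least 1.5, the size the study used for its own lists, was reached by 23 of the members, against 7.75% of all miRNAs with at least 50 reads. The study's own list for AGL6sil held 16 of the members. Members that reached this size but were not in that list included novel_500, novel_222, novel_163, novel_84, novel_553 and novel_190. These shares rest on the values that chose the members and are given for orientation.

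The members just inside the limit of 1.5 were novel_475 (29 reads in AGL6sil against 19 in IAA9sil and 9 in ctrl, ratio 1.51), novel_419 (133, 44 and 41 reads, 1.52) and novel_114 (49, 33 and 15 reads, 1.53). Just outside were novel_74 (110, 61 and 35 reads, 1.48), novel_480 (44, 16 and 14 reads, 1.48) and novel_466 (185, 39 and 59 reads, 1.47). A handful of reads thus separates those inside from those outside. At the limits on summed reads, novel_407 and novel_553, with 52 reads each, were just inside and novel_447 and novel_444, with 49 each, just outside. At the upper limit novel_289 had 486 reads and novel_38, outside, had 535.

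The highest ratios belonged to miRNAs that were almost absent from ctrl. In 11 members AGL6sil was 5-fold or more above ctrl, and each of these had 6 or fewer ctrl reads. novel_267 had 366 reads in AGL6sil against 2 in IAA9sil and 1 in ctrl, and was the member with the most reads in AGL6sil. Its ratio to ctrl was 172 with a counting interval of 30.7 to 6810, and its ratio to IAA9sil was 99.8 (27.4 to 827). Of its 369 reads, all but 3 were in AGL6sil.

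novel_500 had 178 reads in AGL6sil against 2 in IAA9sil and 0 in ctrl. With the 0 taken at 3, it was 27.9-fold higher in AGL6sil than in ctrl. The counting interval keeps the raw 0 and so does not belong to that fold. It started at 22.4 and had no upper limit. novel_84 had 154 reads in AGL6sil and 0 in both other libraries. With each 0 taken at 3 it was 24.1-fold above ctrl and 28.0-fold above IAA9sil. The intervals from the raw 0 started at 19.4 and 22.5, again with no upper limit. novel_553 had 52 reads in AGL6sil and 0 in both others, in the same way 8.14-fold above ctrl and 9.45-fold above IAA9sil. Its intervals from the raw 0 started at 6.39 and 7.42, with no upper limit. These 3 miRNAs were seen in AGL6sil and hardly elsewhere, as was novel_267. novel_163, with 53 reads in AGL6sil against 3 in IAA9sil and 1 in ctrl, and novel_190, with 50, 3 and 3 reads, showed the same pattern at lower depth. In these 6 members IAA9sil and ctrl were both at 3 reads or fewer, so no fold between those 2 libraries is given for them. They passed the lower limit of 50 summed reads only through AGL6sil, and the ratio favours low ctrl counts. Their near absence elsewhere thus follows in part from the choice, and how large that part is was not tested.

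A further 3 members with few ctrl reads differed from these in IAA9sil. novel_307 had 74 reads in AGL6sil against 5 in IAA9sil and 3 in ctrl, a ratio of AGL6sil to ctrl of 11.6 (3.81 to 57.5) and to IAA9sil of 8.07 (3.31 to 25.6). novel_170 had 47, 14 and 3 reads, 7.36 times ctrl in AGL6sil (2.37 to 37.0) and 4.02 times ctrl in IAA9sil (1.12 to 21.8). novel_222 had 56, 5 and 1 reads, with ratios of 26.3 in AGL6sil (4.53 to 1060) and 4.31 in IAA9sil (0.482 to 204). The ratio of IAA9sil to ctrl for novel_307 was 1.44 (0.279 to 9.24). Of these 3, only novel_170 had an interval in IAA9sil above 1, and for novel_307 and novel_222 the reads were too few to place IAA9sil against ctrl.

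**Figure D2:**
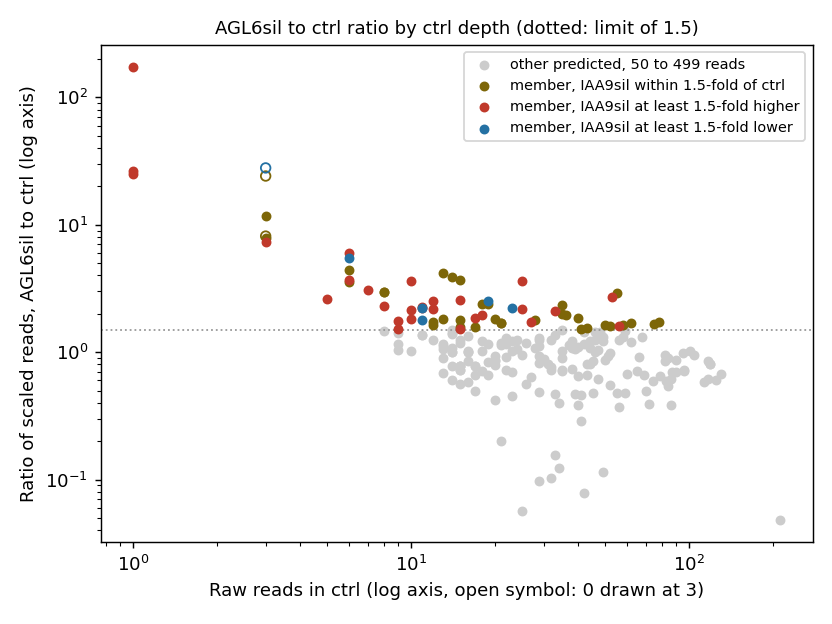
Ratio of scaled reads of AGL6sil to ctrl against raw reads in ctrl for the 235 predicted miRNAs of middle depth, both on log axes, 1 point per miRNA, with the members coloured by where IAA9sil stood against ctrl (a 0 taken at 3). The 11 ratios of 5 or more all lie at 6 ctrl reads or fewer, and from 10 ctrl reads on the members lie between 1.52 and 4.19.

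The 49 members with 10 or more reads in ctrl had ratios of AGL6sil to ctrl between 1.52 and 4.19, with a median of 1.86. novel_476 (116 reads in AGL6sil against 17 in IAA9sil and 13 in ctrl), novel_316 (115, 18 and 14 reads) and novel_77 (117, 20 and 15 reads) led them with ratios of 4.19, 3.86 and 3.66. Their profiles were alike. In each, IAA9sil was within 1.5-fold of ctrl, with ratios of 1.13, 1.11 and 1.15, and AGL6sil was between 3.19 and 3.72 times IAA9sil. novel_127, with 56, 9 and 6 reads, had the same form, 4.38 times ctrl in AGL6sil and 1.29 times ctrl in IAA9sil.

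Among the 5 members with the most reads, novel_267 has been given above, and the other 4 had 53 or more ctrl reads. novel_289 had 306 reads in AGL6sil against 127 in IAA9sil and 53 in ctrl, 2.71 times ctrl in AGL6sil and 2.06 times in IAA9sil (1.49 to 2.90). novel_493 had 343, 87 and 55 reads, with ratios of 2.93 in AGL6sil and 1.36 in IAA9sil (0.961 to 1.95). novel_330 had 264, 113 and 75 reads, with ratios of 1.65 and 1.30 (0.960 to 1.76). novel_46 had 285, 79 and 78 reads, with ratios of 1.72 and 0.872 (0.630 to 1.21). Of these 4, only novel_289 had an interval in IAA9sil that lay above 1.

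The question left by the choice of members is where IAA9sil stood for the same miRNAs. Of the 70 members, 28 were at least 1.5-fold higher in IAA9sil than in ctrl (40.0%), 36 were within 1.5-fold of ctrl and 6 were at least 1.5-fold lower (8.57%). Over all 374 miRNAs with at least 50 reads, 17.1% were as much higher and 20.1% as much lower. novel_267 and novel_163 among the 28, and novel_500 among the 6, had 3 or fewer reads in both libraries, and without these the counts were 26 and 5. IAA9sil was above ctrl by any amount in 48 of the 70, against 46.3% of all miRNAs with at least 50 reads. The median ratio of IAA9sil to ctrl was 1.23 over the members, 0.968 over all 374, 0.861 over the other predicted miRNAs of the same depth and 1.01 over the known miRNAs of that depth.

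Both ratios use the same ctrl library, so a ctrl count that was low by chance raises them together, and part of this shift follows from the choice. How large that part is was not tested. Among the 49 members with 10 or more ctrl reads, 17 were at least 1.5-fold higher in IAA9sil (34.7%) and the median ratio was 1.15, against 13.8% and 0.923 for the 348 miRNAs past both read limits. For single miRNAs the counts were often too few to place IAA9sil. The counting interval of the ratio of IAA9sil to ctrl lay above 1 for 15 of the 70 members (21.4%), a share near the 17.6% of all miRNAs with at least 50 reads, whose median total was 189 reads against 116.5 for the members.

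**Figure D3:**
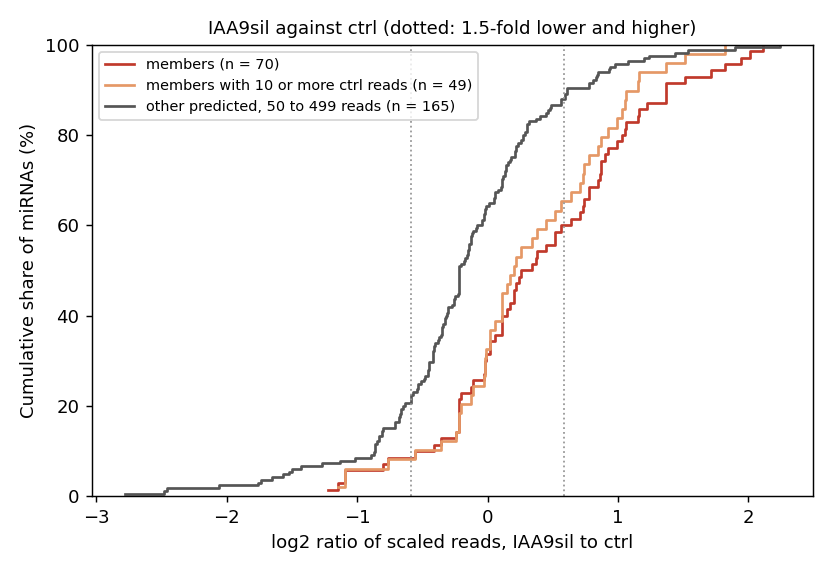
Cumulative share of miRNAs, in percent, by the log2 ratio of scaled reads of IAA9sil to ctrl for the 70 members, the 49 of them with 10 or more ctrl reads and the other 165 predicted miRNAs of middle depth, with dotted lines at 1.5-fold lower and higher. The members' curve lies to the right of that of the others, with 40.0% of members and 12.1% of the others at least 1.5-fold higher in IAA9sil, and both ratios share the ctrl library.

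The 28 members at a ratio of 1.5 or more in IAA9sil fell into 20 whose scaled reads in IAA9sil were within 1.5-fold of AGL6sil or above it, and 8 that were at least 1.5-fold higher in AGL6sil than in IAA9sil. The latter 8 held novel_267 and novel_163, with 3 or fewer reads in both IAA9sil and ctrl, and novel_222 and novel_170, given above. The other 4 were novel_60, novel_104, novel_108 and novel_352. novel_60 had 191 reads in AGL6sil against 65 in IAA9sil and 25 in ctrl, 3.59 times ctrl in AGL6sil and 2.24 times in IAA9sil (1.39 to 3.71). novel_104, the repeat shown above, had 76, 18 and 6 reads, with ratios of 5.95 and 2.58 (0.982 to 7.95). novel_108 had 77, 23 and 10 reads, with ratios of 3.62 and 1.98 (0.907 to 4.66), and novel_352 had 47, 13 and 6 reads, with ratios of 3.68 and 1.87 (0.662 to 5.99). In these 4 the scaled reads in IAA9sil lay between ctrl and AGL6sil, and only for novel_60 was the interval above 1.

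In 3 of the 70 members (4.29%) AGL6sil was at least 1.5-fold lower than IAA9sil, against 31.6% of all miRNAs with at least 50 reads. High AGL6sil counts chose the members and stand in this ratio. novel_521 had 34 reads in AGL6sil against 40 in IAA9sil and 9 in ctrl, 3.83 times ctrl in IAA9sil (1.83 to 8.97) and 1.77 times in AGL6sil. novel_318 had 75, 74 and 18 reads, 3.54 times ctrl in IAA9sil (2.09 to 6.30) and 1.96 times in AGL6sil. novel_110 had 39, 33 and 10 reads, 2.84 times ctrl in IAA9sil (1.37 to 6.46) and 1.83 times in AGL6sil. The ratio of AGL6sil to IAA9sil was 0.464 for novel_521 (0.285 to 0.751), 0.553 for novel_318 (0.396 to 0.773) and 0.645 for novel_110 (0.395 to 1.06), so the interval lay below 1 for the first 2. novel_407, with 28, 19 and 5 reads, was 3.27 times ctrl in IAA9sil (1.18 to 11.2) and 2.63 times in AGL6sil, and its interval between the silenced libraries (0.433 to 1.52) included 1. In all 4 the interval of IAA9sil to ctrl lay above 1.

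Few members went the other way in IAA9sil. novel_69, 1 of the 2 sequences of 21 nt, had 70 reads in AGL6sil against 3 in IAA9sil and 6 in ctrl. Its ratio was 5.48 in AGL6sil and 0.431 in IAA9sil (0.0697 to 2.02). novel_94 had 108, 12 and 23 reads, with ratios of 2.21 and 0.449 (0.204 to 0.941). novel_119, with 52, 6 and 11 reads, and novel_157, with 42, 6 and 11 reads, each had a ratio of 0.470 in IAA9sil. Only novel_94 had an interval wholly below 1. The remaining members lower in IAA9sil by this measure were novel_500, with 2 and 0 reads and so not placed, and novel_90 (102, 13 and 19 reads, ratio 0.589), which was named after its value was seen.

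Set against IAA9sil directly, 45 of the 70 members were at least 1.5-fold higher in AGL6sil (64.3%), 22 were within 1.5-fold and 3 were at least 1.5-fold lower. Over all 374 miRNAs with at least 50 reads, 25.4% were as much higher. The median ratio of AGL6sil to IAA9sil was 1.83 over the members, 0.964 over the other predicted miRNAs of the same depth and 0.572 over the known miRNAs of that depth. The interval of this ratio lay above 1 for 46 members (65.7%), against 24.6% of all. AGL6sil counts chose the members and stand in this ratio too, so these values carry the choice with them. Of the 36 members within 1.5-fold of ctrl in IAA9sil, 31 were at least 1.5-fold higher in AGL6sil than in IAA9sil. All members were at least 1.5-fold above ctrl in AGL6sil by choice, so a ratio above 1 was fixed in advance for these 36. The count is a description only. novel_146 (50, 11 and 8 reads) and novel_143 (50, 7 and 8 reads) had ratios of AGL6sil to IAA9sil of 2.48 (1.27 to 5.28) and 3.90 (1.76 to 10.2), while novel_343, at a like depth, had a ratio between the silenced libraries of 1.32 (0.759 to 2.39).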

How the data were processed

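Small RNA was sequenced from 1 pool of ovaries per condition. The deposited values are raw counts of reads per mature miRNA. The authors cleaned the reads, mapped those of 18 to 30 nt to the genome with Bowtie (version and build not given in the sources used here), matched them to miRBase or to hairpins predicted with miREvo and mirdeep2, and counted them without normalization. Counts were scaled here by the library median, and a 0 was taken at 3. With 1 library per condition no test was made. Intervals are 95% Clopper-Pearson intervals of a pair of raw counts, scaled in the same way, with a 0 kept at 0. The code was checked on simulated counts.

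The members and lists were chosen with earlier results of these data known. The members named are those with a sequence in the supplementary lists, the 10 highest ratios of AGL6sil to ctrl, the 5 highest and 5 lowest of IAA9sil to ctrl, the 5 with the most reads, those with 3 or fewer ctrl reads and those at the limits. Alternatives were 6 other scales (among them DESeq2 1.42.0 and edgeR 4.0.16), a pseudocount of 1, other read limits, a 2-fold limit and a minimum of 10 ctrl reads. Sequences were taken from the study's supplementary lists. Genome positions and predicted targets were not analysed here. Python 3.11.15, scipy 1.17.1 and R 4.3.3 were used.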

Additional observations from a re-analysis of the deposited data

How the results depend on the processing

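The scale set how many miRNAs counted as members. Their number was 70, and 135 with the total of all miRNA reads as the scale, 183 without scaling and 201 with the clean reads of each library. Each of these held all 70. With the median of predicted miRNAs only it was 62, all among the 70. With a lower limit of 100 reads it was 39, with no lower limit 147, and with a 2-fold limit 41. The medians that follow are over the original 70 members, unless stated. The median log2 ratio of IAA9sil to ctrl was 0.30, and 0.49 with total reads, 0.51 without scaling and 0.64 with clean reads. That of AGL6sil to IAA9sil was 0.87, and 0.75 with the median of predicted miRNAs, 0.98 with TMM, 1.27 with total reads, 1.75 without scaling and 1.84 with clean reads. Over the 49 members with 10 or more ctrl reads these medians were 0.20 and 0.69, with 17 members at least 1.5-fold higher in IAA9sil than in ctrl and 29 higher in AGL6sil than in IAA9sil. No median changed sign under any scale or with a pseudocount of 1. Over fixed members, a scale moves all log2 ratios between 2 libraries by the same amount. An unchanged sign under these scales is therefore no separate support. In AGL6sil the factor relative to ctrl ranged from 0.857 with clean reads to 2.308 with the median of predicted miRNAs, and in IAA9sil from 0.916 to 1.161. No paired analysis was possible because each condition has 1 library.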
